A study of Arabidopsis thaliana with 2 samples.

Results

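The 9 genes described here encode glycoside hydrolase family 19 chitinases of Arabidopsis thaliana. They were taken by locus, and all 9 had a feature named for them among 9236 named genes on the arrays. Of these, 5 lie close together on chromosome 2 and form a tandem array (AT2G43570, AT2G43580, AT2G43590, AT2G43610 and AT2G43620). The other 4 lie at separate places in the genome (AT3G47540, AT1G02360, AT1G56680 and AT4G01700). The family was chosen because its ratios were already known to be low in these data, so its values are given as a description and no test is made on them. Family membership rests on the locus list. The gene table used for naming gives a chitinase name to AT2G43570 (symbol CHI) and no family name to the other 8.

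Chitinases cut chitin, the polymer that stiffens fungal cell walls and that plants do not make. The fragments released are sensed at the plant cell surface by receptors with LysM domains, such as CERK1, and many chitinase genes belong to the pathogenesis-related genes that are switched on during defence. Some members of the family, such as POM1, act instead in building the plant's own cell wall.

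Transcript ratios were measured between untreated cer6-2 plants, mutants that make too little surface wax, and untreated wild-type plants of Ler-0. CER6 encodes a ketoacyl-CoA synthase needed for wax. RNA was drawn from leaves and stems of plants aged 15 days by the sample labels and 2 weeks by the design text, grown together at 22 °C, 80% humidity and 16 h of light, with 1 mutant allele and pools of 20 plants. Array 1 carried cer6-2 in Cy3 and array 2 carried it in Cy5. With 1 pool named per genotype, the 2 arrays were taken as technical measurements of the same pair of pools, and no p-value is given. The labels do not say whether RNA was extracted once or separately for each array, so which sources of error the spread between arrays holds is not known.

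Each value is the log2 ratio of cer6-2 over Ler-0, where -1 is a 2-fold lower level in cer6-2, and each mean is followed by the SD between the arrays (n = 2). A gene was called lower or higher when both arrays gave a difference of 2-fold or more in that direction, which is a rule of size. The direction rests on reading the deposited ratio as Cy5 over Cy3, which no source states. With the opposite reading every "lower" becomes "higher". The table holds ratios without signal levels, so neither how strongly a gene was expressed nor whether its probe was above background is known. In pooled tissue, fewer cells expressing a gene and less transcript per cell cannot be told apart.

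Of the 9 chitinase genes, 5 were called lower in cer6-2 and 0 higher. The same rule called 67 of all 9236 named genes lower (0.725%) and 55 higher (0.595%), and since the family was chosen from this contrast, nothing is read from the difference between these shares. The median over the 9 members was -1.34, beside 0 over all named genes. Below 0 in both arrays were 8 of the 9 members, against 1885 of all named genes (20.4%).

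**Figure D1:**
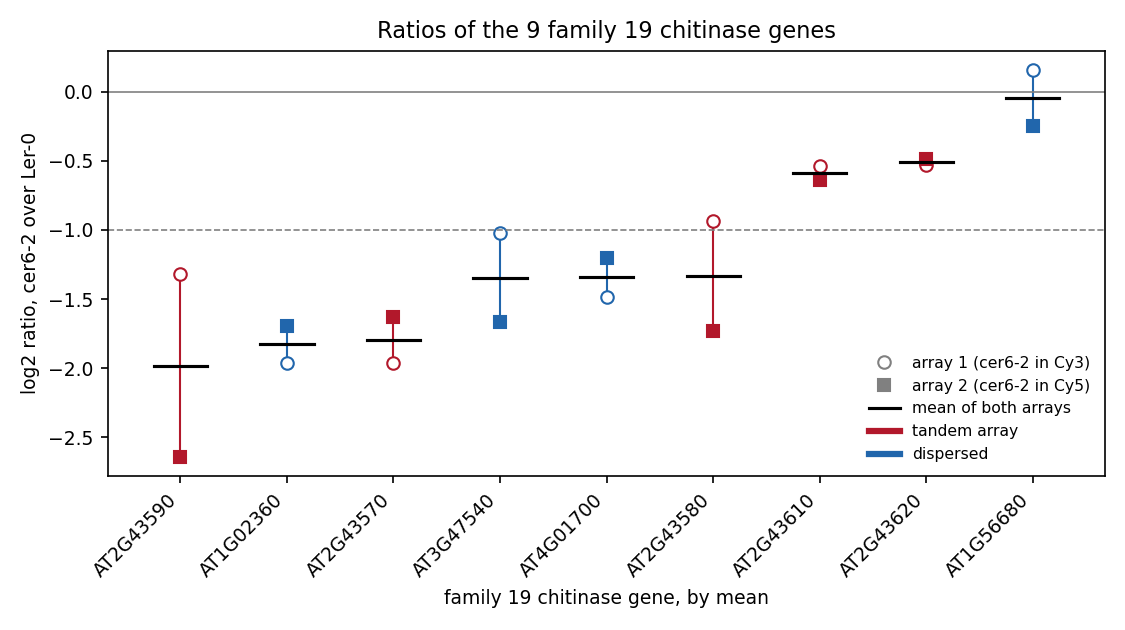
The log2 ratio of cer6-2 over Ler-0 (y axis) of each family 19 chitinase gene (x axis, by mean), with array 1 as open circles, array 2 as filled squares and the mean as a black bar. The 6 genes on the left have means from -1.98 to -1.33, and the 3 on the right from -0.59 to -0.048; the dashed line marks a 2-fold lower level.

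The first gene of the tandem array is CHI (AT2G43570), annotated as a chitinase. It stood at -1.96 in array 1 and -1.63 in array 2. Both arrays placed it more than 3-fold lower in cer6-2, with a mean of -1.79 ± 0.24, which is 3.47-fold lower and the 23rd lowest of all named genes.

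Its neighbour AT2G43580 stood at -0.93 in array 1 and -1.73 in array 2, with a mean of -1.33 ± 0.57. It was 1.91-fold lower in array 1 and 3.33-fold lower in array 2, so array 1 alone kept it from being called. It is the member just outside the rule. Just inside was the dispersed gene AT3G47540, which was 2.03-fold lower in array 1.

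The third gene, AT2G43590, had the lowest mean of the family. It stood at -1.32 in array 1 and -2.64 in array 2, a mean of -1.98 ± 0.93. Both arrays gave a lower level in cer6-2, but they differed by 1.32, the widest gap of the 9 members, so its size is the least certain: 2.50-fold by one array and 6.24-fold by the other.

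The last 2 genes of the tandem array were closer to 0. AT2G43610 stood at -0.54 in array 1 and -0.64 in array 2, a mean of -0.59 ± 0.073. AT2G43620 stood at -0.53 and -0.49, a mean of -0.51 ± 0.033, which is 1.42-fold lower. These 2 had the smallest spread between arrays of the family, and neither was called.

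Along the chromosome, then, the 3 genes at one end of the tandem array had means of -1.33 or lower and the 2 at the other end had means of -0.59 and -0.51. In both arrays the highest of the former lay below the lowest of the latter. AT2G43600, a family member annotated between these groups, has no named feature and no value here. Neighbouring copies can share probe signal, and the probe sequences were not used here, so how far the tandem values are separate measurements was not tested.

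The genes around the tandem array were looked at because the choice of members did not use them. Among the 10 nearest protein-coding genes on each side, 10 of 20 were measured. None of these 10 was called in either direction, where the rule called 0.725% of all named genes lower and 0.595% higher. Opposite signs in the 2 arrays were seen in 7 of the 10, beside 4955 of all 9236 named genes. Nothing is read from either count. The median of the 10 flanking genes was -0.038, with means from -0.21 for AT2G43630 to 0.40 for AT2G43540. AT2G43560, directly beside CHI, stood at 0.029 in array 1 and -0.18 in array 2. AT2G43630, directly beside AT2G43620, stood at -0.15 and -0.27. The highest tandem mean, -0.51, lay below the lowest flanking mean, -0.21. The tandem genes were chosen as low and the flanking genes were not, so nothing is read from this gap.

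**Figure D2:**
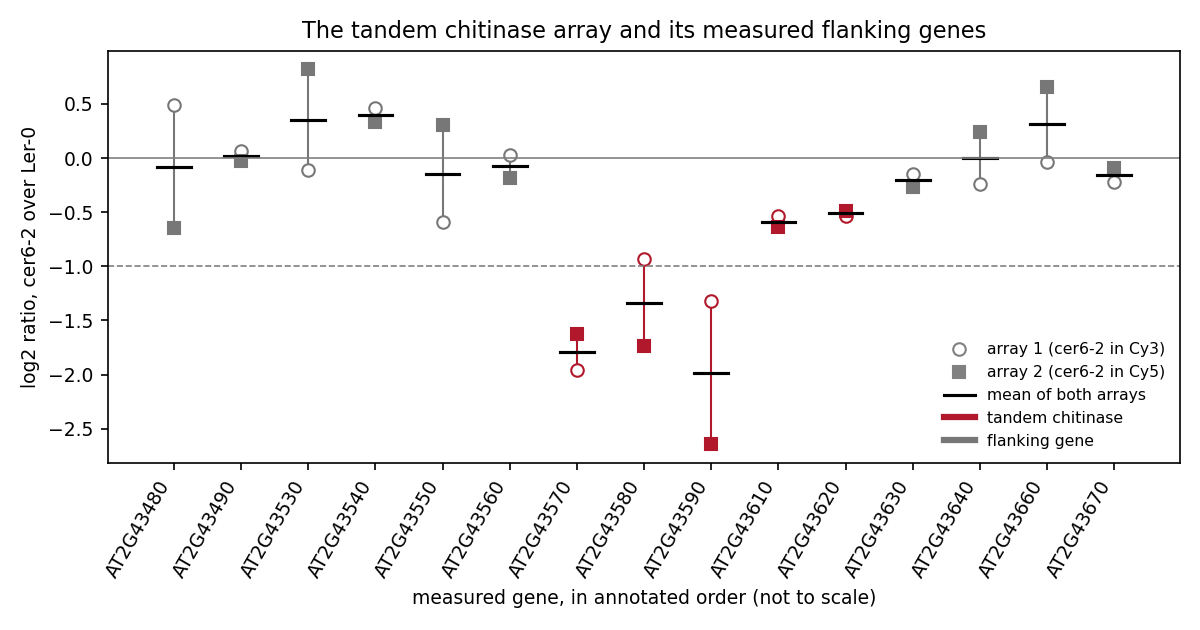
The log2 ratio of cer6-2 over Ler-0 (y axis) of the 5 tandem chitinases (red) and the 10 measured flanking genes (grey), in annotated order and not to scale on the x axis, with array 1 as open circles, array 2 as filled squares and the mean as a black bar. The red means lie between -1.98 and -0.51, and the grey means between -0.21 and 0.40.

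The dispersed members reached the same range. AT1G02360 stood at -1.96 in array 1 and -1.69 in array 2. Its mean of -1.83 ± 0.19 is 3.55-fold lower and the 22nd lowest of all named genes. AT1G02360 and CHI were the 2 members at least 3-fold lower in both arrays, a size reached by 20 of all named genes (0.217%).

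AT4G01700 stood at -1.49 in array 1 and -1.20 in array 2, a mean of -1.34 ± 0.20. AT3G47540 stood at -1.02 and -1.67, a mean of -1.34 ± 0.46. Their means were alike at 2.54-fold lower, and both genes were called, though AT3G47540 passed array 1 narrowly.

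AT1G56680 was the exception in the family. It stood at 0.16 in array 1 and -0.25 in array 2, a mean of -0.048 ± 0.29, and was the only member whose arrays gave opposite signs. Its mean lay among the middle of all named genes, with 40.3% of them at or below it.

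The measured neighbours of the dispersed members, 30 of 80 genes within 10 places on either side, were not called either, and their median was -0.0044. Of these 30, 13 had opposite signs in the 2 arrays. Their means ran from -0.40 to 0.51. By mean, AT1G02360, AT4G01700 and AT3G47540 each lay below every measured gene of their own surroundings. So did AT1G56680, at -0.048 beside a lowest flanking mean of -0.032, so this does not set the called genes apart. Since the members were chosen as low, nothing is read from these gaps.

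Tandem and dispersed members did not separate. The median was -1.33 over the 5 tandem genes and -1.34 over the 4 dispersed genes, a difference of 0.0096 (tandem minus dispersed). Array 1 gave a difference of 0.32 and array 2 one of -0.19, so its direction depended on the array. By the size rule 2 of 5 tandem and 3 of 4 dispersed members were called lower, beside 0.725% of all named genes. Nothing is read from these counts, since the members were chosen as low. They also turn on AT2G43580 and AT3G47540, at 1.91-fold and 2.03-fold lower in array 1, on either side of the cut. The range within each group was wider than the distance between them: tandem means spanned -1.98 to -0.51, and dispersed means -1.83 to -0.048.

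Ordered by mean, the 6 lowest members were AT2G43590, AT1G02360, CHI, AT3G47540, AT4G01700 and AT2G43580. Each of these overlapped with the next in the range of its 2 arrays, so the order of adjacent genes among them is not resolved. Some genes further apart in the order did not overlap. The range of AT1G02360 (-1.96 to -1.69) lay narrowly below that of AT3G47540 (-1.67 to -1.02), and below that of AT4G01700 (-1.49 to -1.20). That of CHI (-1.96 to -1.63) lay below that of AT4G01700. Each range comes from 2 technical arrays of the same pools, so a gap between ranges does not settle an order either. A step of 0.74 between the means of AT2G43580 and AT2G43610 parted these 6 from the other 3, and the array ranges on either side of it were 0.29 apart. AT2G43610 and AT2G43620 were 0.081 apart by mean, with ranges separated by only 0.0068. AT1G56680 followed 0.46 higher, with no overlap. These are orders of ratios; they say nothing of which gene has more transcript.

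**Figure D3:**
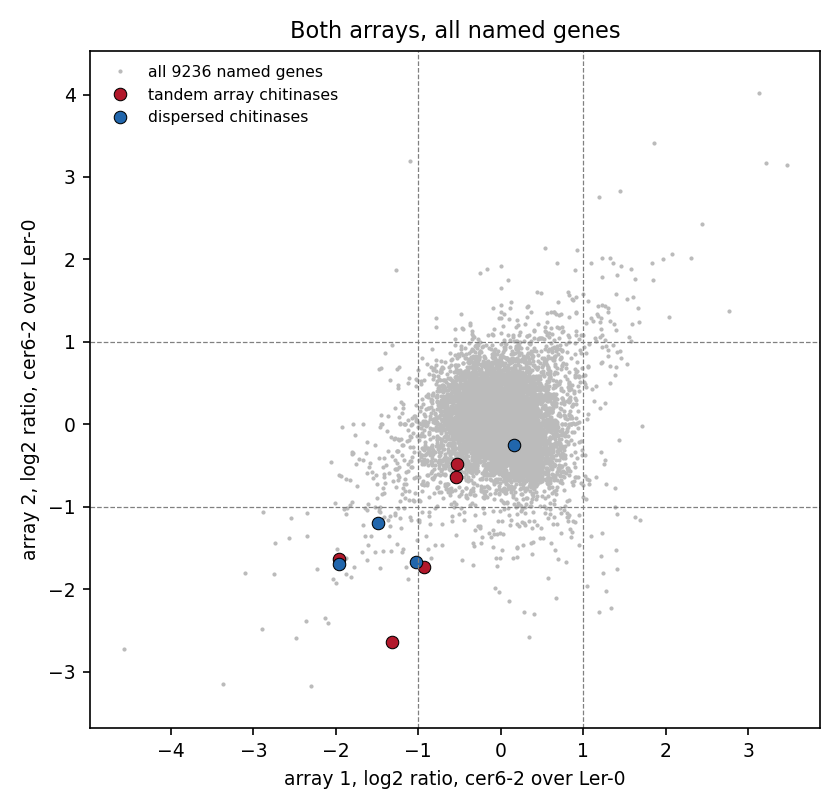
Each named gene as a grey point, by its log2 ratio of cer6-2 over Ler-0 in array 1 (x axis) and array 2 (y axis), with tandem chitinases in red and dispersed ones in blue; dashed lines mark 2-fold. The 5 called members lie in the lower left corner, where 67 of the 9236 genes lie.

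The 9 members had r = 0.69 between the arrays (Spearman's rho 0.60), beside r = 0.17 (rho -0.042) over all 9236 named genes. The points share both arrays and both RNA pools, so this describes how far the arrays rank the members alike. The members were chosen with these same values known, so nothing is read from the difference to all named genes. The median SD between arrays was 0.24 for the members and 0.26 for all named genes. In the columns as deposited, before array 1 was turned, the 8 members below 0 in both arrays had opposite signs, as 4019 of all named genes did (43.5%). This restates the count above for members chosen as low. AT1G56680 was on the Cy3 side in both columns.

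Other genes of chitin breakdown and chitin sensing, together with beta-1,3-glucanases and PR4, were taken from 5 lists of 38 genes. The lists were written with earlier results of these data known, and their genes are called pathway genes below. Only 8 had a named feature. Of the 22575 features 13200 are unnamed, so the other genes may still have a probe among them, and "measured" means here that a feature was named for the gene. Of these 8, 3 were called lower and 0 higher, beside 0.725% of all named genes called lower. Among the 3, AT4G16260 comes from the list of beta-1,3-glucanases and PR4, not from those of chitin breakdown or sensing. The median of the 8 was -0.076: the 3 called genes had means from -1.96 to -1.27, and the other 5 from -0.16 to 0.41.

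Among enzymes, ChiC (AT4G19810), a class V chitinase, stood at -1.65 in array 1 and -1.01 in array 2, a mean of -1.33 ± 0.45. That is the size seen in the middle of the family 19 members, in an enzyme of family 18. A second gene of the family 18 list, AT4G19720, stood at -0.075 and 0.097, with opposite signs. AT4G16260, entered in the list of beta-1,3-glucanases, enzymes that cut the other main polymer of fungal walls, stood at -1.996 in array 1 and -1.92 in array 2. Its mean of -1.96 ± 0.052 was as low as that of the lowest chitinase, with a far smaller spread. It was the only one of 5 genes in that list with a value.

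Further family 19 genes, including the defence chitinase HCHIB, EP3 and the cell wall proteins POM1 and CTL2, had no named feature, so 0 of these 5 have a value here. Of 10 receptors and their kinases 1 had a named feature, BIK1, a cytoplasmic kinase that passes on immune receptor signals, at 0.36 in array 1 and 0.47 in array 2. It was above 0 in both arrays, opposite in sign to the called enzymes, and not called.

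Of the 8 listed regulators known to respond to chitin, 4 were measured. WRKY53, a transcription factor of defence and senescence, stood at -1.42 in array 1 and -1.12 in array 2, a mean of -1.27 ± 0.21. It was called lower. WRKY22, which acts downstream of immune receptors, stood at -0.11 and -0.22 and was not called. WRKY29 and STZ (the zinc finger protein ZAT10) had opposite signs in the 2 arrays, with means of 0.095 ± 0.63 and 0.064 ± 0.40.

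**Figure D4:**
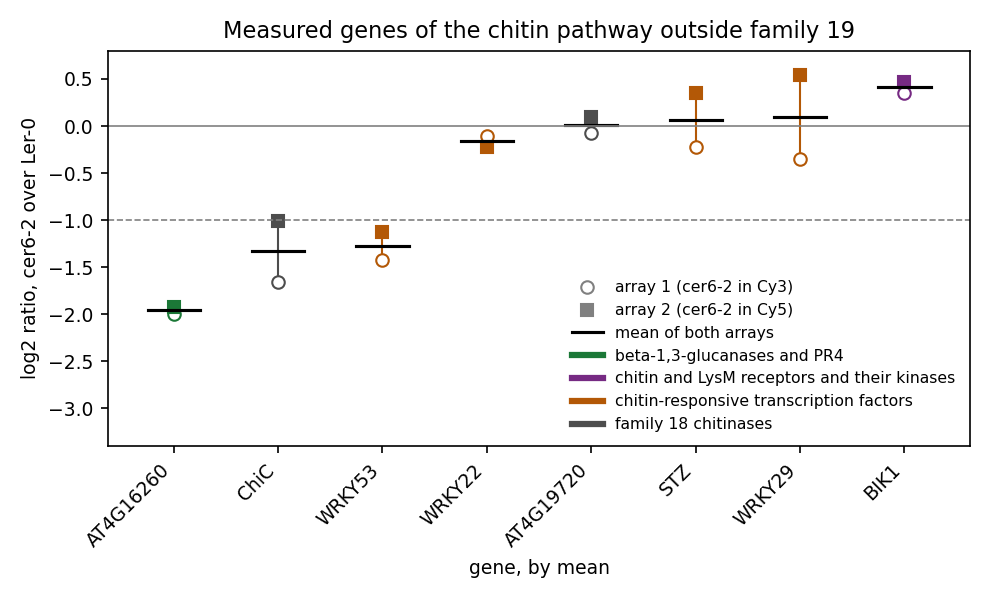
The log2 ratio of cer6-2 over Ler-0 (y axis) of the 8 measured pathway genes outside family 19 (x axis, by mean), coloured by list, with array 1 as open circles, array 2 as filled squares and the mean as a black bar. AT4G16260, ChiC and WRKY53 lie below the dashed 2-fold line in both arrays, and the other 5 means lie between -0.16 and 0.41.

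Likeness to the family was measured as the distance, over both arrays, from the members' medians of -1.02 in array 1 and -1.63 in array 2. The 5 nearest genes outside the family were AT1G73600 at a distance of 0.047, AT4G12290 at 0.16, the beta-expansin gene EXPB3 at 0.18, and AT4G27560 and AT5G66580 at 0.19 each. Their means ran from -1.44 for AT4G12290 to -1.19 for AT4G27560. With 2 values per gene, this likeness says only that their ratios were of a similar size.

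Markers of leaf and root were read beside these results, because roots lie outside the labelled material. Of 6 root markers, 0 were called, with means from -0.75 for BGLU21 to 0.73 for PYK10, and a median of -0.21. One of the 6, XTH26, is listed at exactly 0 in both arrays, as are 166 of all named genes, and such a 0 may not be a measured ratio. The 3 measured leaf markers, of 6 listed, had means from 0.082 to 0.25, and 0 were called. All called chitinases lay below the lowest marker mean, but the calling rule itself puts their means at -1 or lower. In array 2 alone the root marker EXPA7 stood at -1.18, near the -1.20 of the called gene AT4G01700. EXPA7 stood at 0.26 in array 1. Without signal levels the tissue could not be checked against the abundance of its markers, and the part of tissue make-up in the chitinase ratios was not tested. No feature was named for CER6, so the mutated gene could not be used to check the labels.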

How the data were processed

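Two-colour Agilent Arabidopsis 2 arrays were hybridised with RNA labelled by a direct labelling kit, per the labels' protocols. The authors deposited 1 value for each of 22575 features and 2 arrays, read here as a log10 ratio. The base was inferred from values stopping at 2 in size, and the sources used here give no background correction, dye normalisation or filter. Depth has no meaning for arrays; their number limits the precision. Values were converted to log2, and the sign of array 1 was reversed to express it, like array 2, as cer6-2 over Ler-0.

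Gene names came from the platform annotation joined to a RefSeq gene table (TAIR10.1) by gene identifier: 9375 features were annotated, 40 with several genes, 9317 matched 1 gene and 18 did not. Features of 1 gene were averaged; each chitinase had 1 feature. The gene table also gave gene order. Both arrays were counted as 1 biological replicate, so no test was run. The calling step was tested on simulated data.

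The members, lists and named genes were chosen with earlier results of these data known. Named were all 9 members, the 5 genes nearest to the members' medians, and called flanking genes. The highest 2 and lowest 2 measured genes of each list were also named, except for the leaf markers, given as a range. The genes beside the array, those at the ends of the flanking range and all measured pathway genes were named after their values were seen. Alternatives were each array alone, centring, leaving out discordant features, reading the columns as already turned or as log2, other thresholds and means. Sequences were not used here. Python 3.11.15, numpy 2.4.6, pandas 2.3.3 and matplotlib 3.10.9 were used.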

Additional observations from a re-analysis of the deposited data

How the results depend on the processing

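The count of chitinases called depended on how the deposited columns are read. With each array alone 5 to 6 members were at least 2-fold lower, where 5 is set by the calling rule itself, and all named genes called ran from 329 to 369 in place of 122. The flanking median then ran from -0.070 to 0.11 and the difference of tandem minus dispersed medians from -0.19 to 0.32, so neither sign is settled. At 3-fold, 2 members (CHI and AT1G02360), 1 pathway gene and 31 of all genes were called. At 1.5-fold 6 members and 342 of all genes were called, and by the mean of both arrays 6 members and 212 of all genes. Without features differing over 2-fold between arrays, which drops AT2G43590, 4 members were called. The tandem median was then -0.96, the difference of medians 0.38 and the flanking median 0.00098. By means over members the difference was -0.10, and the dispersed value -1.14.

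With the columns read as already turned before deposit, 0 members, 0 pathway genes and 15 of all genes were called. The medians were then -0.051 for all members, -0.051 for tandem and -0.033 for dispersed members, with a difference of -0.018, and 0.0077 for flanking genes. CHI then stood at 0.17, and AT1G02360 and AT4G01700 at 0.14 each, above 0. Read as log2, the table gave 0, 0 and 0 calls and medians of -0.40 for all, -0.40 for tandem and -0.40 for dispersed members. The log base and the turning follow from construction; for the other changes the cause was not tested. Centring kept the member count at 5. No paired analysis was possible because the labels name 1 pool of plants per genotype and both arrays were taken as hybridisations of it. How far weak signal limits the ratios near 0 is unknown, since the table gives no signal.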
